A study of Bos taurus with 60 samples.

Results

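Keratins 7, 19, 24 and 80 and claudins 3 and 4 are epithelial genes of the mammary gland. Their 6 loci, KRT7, KRT19, KRT24, KRT80, CLDN3 and CLDN4, were followed here over the dry period and between heat-stressed (HT) and cooled (CL) cows. The genes were chosen by name and locus with earlier results of these data known, so counts of calls among them may lean toward change. They are 6 of the 25223 loci counted, and all 6 were among the 14714 loci that passed the filter on low counts. The samples were 60 biopsies of mammary tissue from 12 multiparous Holstein cows, each sampled 3 days before dry-off (D-3) and 3, 7, 14 and 25 days after it (D3, D7, D14 and D25). Both groups of 6 cows were housed under shade, and the pen of the CL cows also had fans and water soakers while that of the HT cows had neither. Cows were assigned to HT or CL at random and the treatments began at dry-off, so D-3 preceded them. Each treatment was given in its own pen, so pen and treatment cannot be told apart, and calendar time and days since dry-off moved together in every cow. The cows were in late gestation, so its stage advanced with the days as well. The paper also states that the site of biopsy in the udder alternated between time points. Comparisons of time points, also within a cow, thus include a change of site and of gestation stage.

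Keratins are the intermediate filament proteins of epithelial cells and assemble as pairs of a type I and a type II chain. KRT19, a small type I keratin, and KRT7, a type II keratin, are typical of simple epithelia such as the luminal layer of mammary ducts and alveoli. KRT24 is a less studied type I keratin and KRT80 a type II keratin reported in several kinds of epithelia. Claudins are membrane proteins of the tight junction, where they set how freely ions and small solutes pass between neighboring cells, and CLDN3 and CLDN4 are widespread members of the family in glandular epithelia. In the mammary gland, tight junctions between secretory cells are closed during lactation and become leaky after milking stops.

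Total counts ranged from 20525083 to 26183990 per sample, and levels are given as CPM, each count relative to the library's total in edgeR's usual unit, scaled by TMM, edgeR's normalization across samples. Gene lengths were not used, so levels are compared between samples and not between genes. The counts of the locus of KRT7 also hold LOC787600, annotated as a cuticular keratin, and reads of the 2 genes cannot be divided. At D-3 the samples fell into separate sets by the share of counts in the milk protein genes CSN1S1, CSN2 and LALBA, which was 40.2 to 49.8% in 5 cows (3 CL, 2 HT) and 0.19 to 8.03% in the other 7. The biopsy of CL cow 7965 at D14 stood apart from all others at that time in epithelial genes, and the late samples (D14 and D25) of HT cows 8513 and 8660 were in each case nearer to the earlier ones of the opposite cow than to their own. Both are HT, so no sample's treatment is in doubt. In tissue samples such as these, fewer cells of a type and less RNA per cell cannot be told apart.

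From D-3 to D3, 4 of the 6 genes changed by edgeR's quasi-likelihood F-test with a Benjamini-Hochberg false discovery rate (FDR) of at most 0.05, against 15.1% of all loci tested. KRT7, KRT80 and CLDN4 rose and KRT24 fell, where 6.03% of all loci were called higher and 9.04% lower. Among tested loci paired with a symbol, as these 6 are, 55.4% were called, 23% higher and 32.4% lower. Such loci were named largely through tables of changed genes, and 4 of 6 lies near their share. KRT19 and CLDN3 did not pass the test. From D3 to D7, KRT7, KRT80 and CLDN3 fell, and after D7 no step between neighboring time points changed any of the 6. D3 had the highest mean level for 5 of the genes and D-3 for KRT24.

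**Figure D1:**
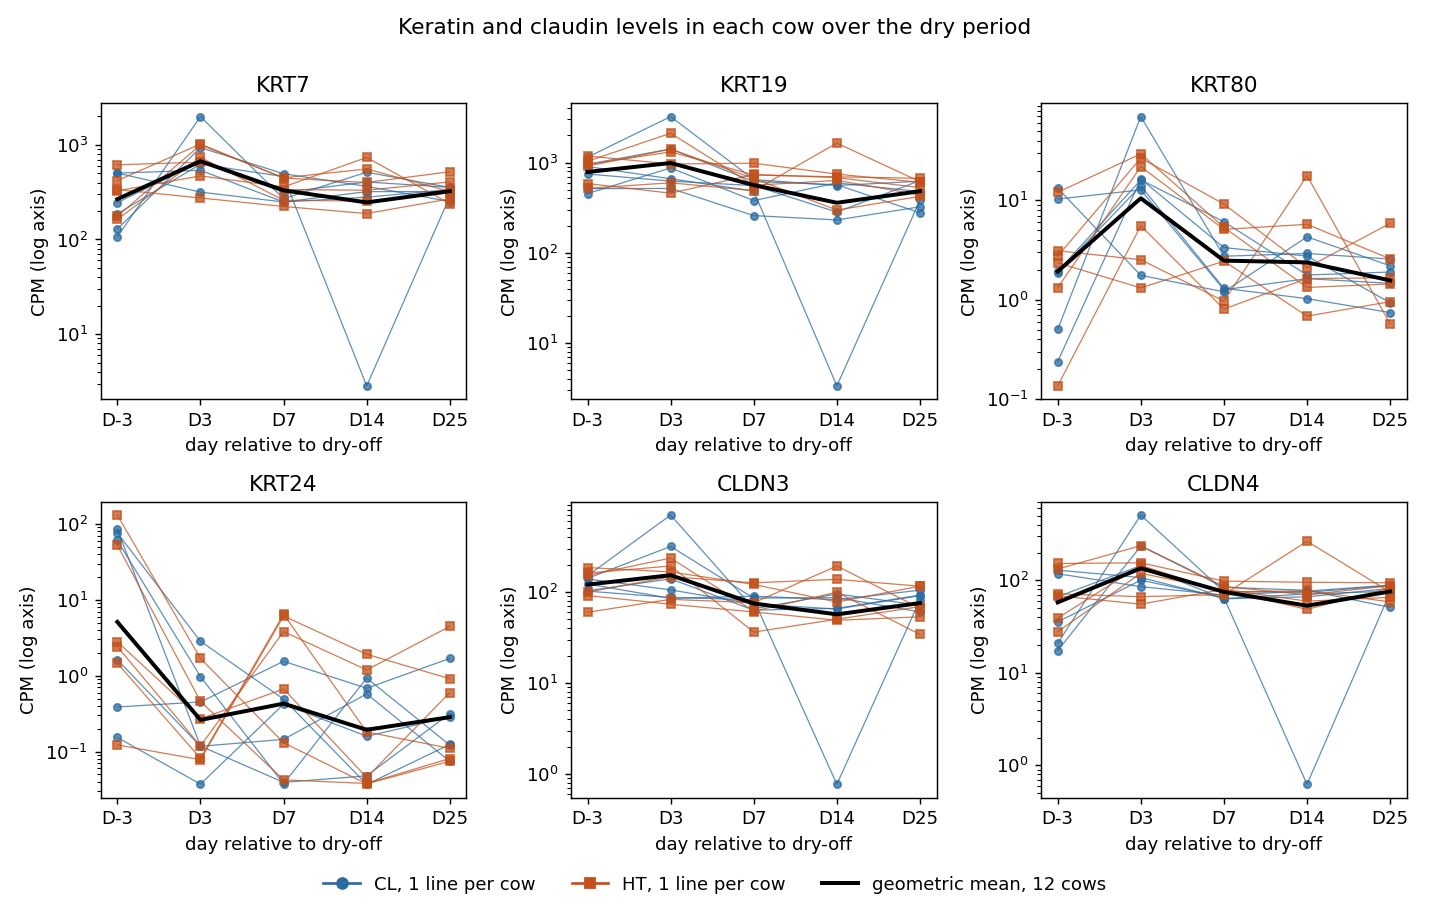
Level of each gene in CPM on a log axis (vertical) at the 5 time points in days relative to dry-off (horizontal). Thin lines join the samples of 1 cow, colored by treatment (CL or HT), and the thick line is the geometric mean of 12 cows. The means of 5 genes are highest at D3 and that of KRT24 at D-3, and at D14 1 CL sample lies far below the rest for KRT7, KRT19, CLDN3 and CLDN4.

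KRT7 had a lowest, median and highest level of 107, 286 and 617 CPM in the 12 cows at D-3 and of 275, 662 and 1992 CPM at D3. The 2 days overlapped, and the highest value at D3 was that of CL cow 8564. KRT7 rose by 1.31 on the log2 scale (SE 0.33, FDR 0.00412 by edgeR), and it was higher at D3 in 10 of 12 cows, by a mean of 1.33 ± 1.46 on the log2 scale (SD, n = 12, exact two-sided sign-flip test, p = 0.00977). At D7 it was 223, 326 and 496 CPM, lower than at D3 in every one of the 12 cows. The fitted log2 fold change was -1.17 (SE 0.33, FDR 0.0367 by edgeR), with a within-cow mean of -1.02 ± 0.71 (SD, n = 12, exact p = 4.88e-04, the smallest that 12 cows allow). The call was lost without any 1 of 7 cows, 8060 (FDR 0.0637), 8541 (0.088), 8564 (0.175), 8603 (0.0685), 8647 (0.0695), 8660 (0.0648) or 8713 (0.0886 by edgeR). In all, 30 such within-cow tests were computed, 5 for each gene, and their p-values are given unadjusted. With Benjamini-Hochberg adjustment over the 30 sign-flip tests, KRT80 and CLDN4 for D3 vs. D-3 and KRT24 for D25 vs. D-3 had an adjusted p of 0.05005. These did not pass 0.05.

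KRT19 had a lowest, median and highest level of 454, 908 and 1181 CPM at D-3, 458, 918 and 3229 CPM at D3 and 259, 589 and 984 CPM at D7. The medians of D-3 and D3 were close together and only the upper values differed. The log2 fold change of D3 vs. D-3 was 0.52 (SE 0.34, FDR 0.333 by edgeR), with 8 of 12 cows higher at D3 (exact p = 0.0942). From D3 to D7 it was -0.995 (SE 0.34, FDR 0.0927 by edgeR), which did not pass, while 10 of 12 cows were lower at D7 by a mean of -0.81 ± 0.83 within cow (SD, n = 12, exact p = 0.00684).

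KRT80 was a low gene at every time point. At D-3 it had 0.136, 2.14 and 13.3 CPM (lowest, median and highest), and the lowest value rested on 1 read. At D3 it had 1.32, 15.04 and 69.7 CPM, with 9 of 12 cows higher than at D-3 and 2 HT cows and 1 CL cow lower. The log2 fold change was 2.09 (SE 0.56, FDR 0.00805 by edgeR), with a within-cow mean of 2.33 ± 2.87 (SD, n = 12, exact p = 0.0186). It fell again by D7, when it had 0.807, 2.60 and 9.20 CPM and 11 of 12 cows were lower than at D3 (within-cow mean -2.05 ± 1.42, SD, n = 12, exact p = 0.00146). The rise of KRT80 was not called without cow 8564 (log2 fold change 1.56, FDR 0.0732 by edgeR), nor was its fall (FDR 0.0903).

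KRT24 was the gene that was lower at D3. At D-3 it had 0.123, 2.61 and 130 CPM (lowest, median and highest), and at D3 0.0373, 0.195 and 2.84 CPM. Its level was lower at D3 in 11 of 12 cows, by a mean of -3.84 ± 2.70 on the log2 scale (SD, n = 12, exact p = 9.77e-04), and in the fit of all samples the log2 fold change was -5.86 (SE 1.03, FDR 7.78e-05 by edgeR). With libraries scaled by their totals alone it was -4.62 (FDR 9.92e-04). After D-3 the highest value in any sample was 6.45 CPM, and many samples held only 1 to 3 reads, so differences between later time points were not well measured at this depth.

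Of the claudins, CLDN4 had 17.4, 67.4 and 152 CPM (lowest, median and highest) at D-3 and 55.3, 132 and 508 CPM at D3. Its log2 fold change was 1.15 (SE 0.35, FDR 0.0201 by edgeR), and 8 of 12 cows were higher at D3 (within-cow mean 1.22 ± 1.65, SD, n = 12, exact p = 0.0186). The call did not hold without any 1 of 4 cows, 8541 (FDR 0.0536), 8564 (0.172), 8647 (0.0776) or 8713 (0.0544). CLDN3 had 59.8, 130.7 and 185 CPM at D-3 and 73.2, 143 and 700 CPM at D3, and its log2 fold change of 0.63 did not pass (SE 0.33, FDR 0.204 by edgeR), with 7 of 12 cows higher.

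From D3 to D7 it was CLDN3 that passed the test. CLDN3 fell to 36.2, 74.9 and 126 CPM at D7, lower than at D3 in 11 of 12 cows. Its fitted log2 fold change was -1.31 (SE 0.33, FDR 0.0209 by edgeR), with a within-cow mean of -1.03 ± 1.13 (SD, n = 12, exact p = 9.77e-04). This call was lost without cow 8541 (FDR 0.0696), 8564 (0.177), 8647 (0.0692) or 8713 (0.0644 by edgeR). CLDN4 stood at 63.2, 75.3 and 98.2 CPM at D7, the narrowest spread of any of the 6 genes at any time point relative to its mean (75.7 ± 10.4 CPM, SD, n = 12). Its log2 fold change of -1.11 did not pass (SE 0.35, FDR 0.0694 by edgeR), although 10 of 12 cows were lower than at D3 (exact p = 0.00342).

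For D7 vs. D3, 3 of 6 genes were called against 2.92% of all loci tested and 13.3% of those paired with a symbol. All 3 were lower, as were 2.3% of all loci and 10.6% of those with a symbol. The count of 3 genes moved with the samples and the scaling. It was 0 without cow 8564, 1 (KRT80) without cow 8541, 8647 or 8713, 2 (KRT80 and CLDN3) without cow 8060, 8603 or 8660, and 5 without cow 7965 or without its D14 sample alone, when KRT19 (FDR 0.0172) and CLDN4 (FDR 0.0171) were also called. With libraries scaled by their total alone it was 0, although the direction of every gene was kept. For D3 vs. D-3 without cow 8564, KRT7 (log2 fold change 1.01, FDR 0.0443 by edgeR) and KRT24 were the 2 genes called. A fit with the cow as a block called the same genes in every comparison of time points, against 21.5% of all loci in the first step (D3), 5.99% in the second (D7), 20.4% between D-3 and D25, and 0% otherwise. The first and second steps use the same D3 samples, so the rise and the fall are not independent of each other.

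**Figure D2:**
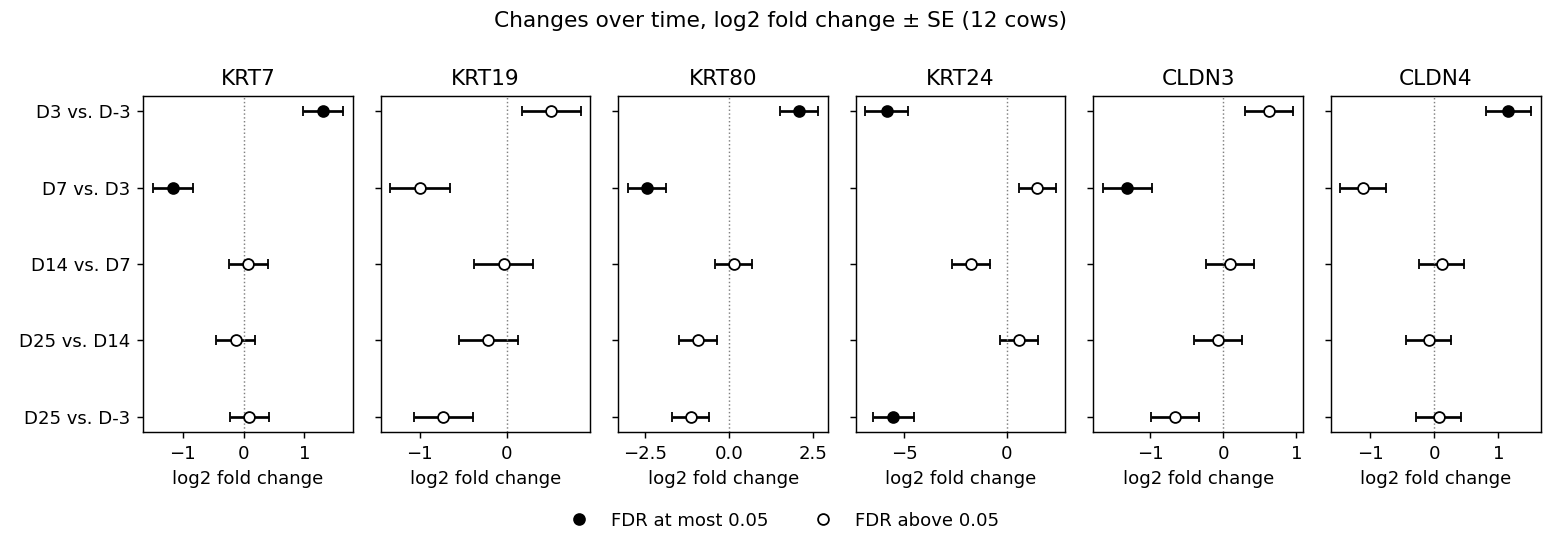
Log2 fold change of each gene (horizontal) in the 5 comparisons of time points (vertical) from edgeR's fit of 60 samples, with bars of 1 SE and filled points where the FDR was at most 0.05. KRT7, KRT80 and CLDN4 are filled above 0 and KRT24 below it for D3 vs. D-3, KRT7, KRT80 and CLDN3 are filled below 0 for D7 vs. D3, and no point is filled for D14 vs. D7 or D25 vs. D14.

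The 2 sets of cows at D-3 differed in how these genes lay. In the 5 cows with over 40% milk protein counts, KRT24 ranged from 52.4 to 130 CPM, and in the 7 cows under 10% from 0.123 to 2.80 CPM, so the high values of KRT24 were those of these 5 cows. The ranges were apart in the other direction for KRT7, at 107 to 187 CPM in the 5 cows and 245 to 617 CPM in the 7, and for CLDN4, at 17.4 to 39.0 and 66.6 to 152 CPM. KRT80 nearly parted, at 0.136 to 1.93 and 1.88 to 13.3 CPM. KRT19 (904 to 1147 and 454 to 1181 CPM) and CLDN3 (102 to 161 and 59.8 to 185 CPM) overlapped. These sets were seen in the data and are given as ranges with no test.

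The log2 differences between D3 and D-3 within a cow were apart in the 2 sets for 3 genes, KRT7, CLDN4 and KRT24. For KRT7 they ran from 1.74 to 4.22 in the 5 cows and from -0.67 to 1.45 in the 7, and for CLDN4 from 1.496 to 4.60 and from -0.47 to 1.12. For KRT24 they ran from -8.71 to -4.70 and from -3.62 to 0.18. KRT19 ran from -0.45 to 1.49 and from -0.36 to 0.94, CLDN3 from -0.23 to 2.21 and from -0.52 to 0.56, and KRT80 from 3.01 to 6.89 and from -2.85 to 3.24, and for these the sets overlapped. The 5 samples also had the lowest TMM factors, 0.300 to 0.419 against 1.02 to 1.21 in the other 7, so the levels are also given without TMM. With CPM by total counts alone, KRT7 was 41.9 to 78.2 and 294 to 627 in the 2 sets, CLDN4 5.82 to 14.9 and 70.4 to 155, and KRT24 15.7 to 47.3 and 0.125 to 2.89. KRT19 (273 to 450 and 545 to 1200) and CLDN3 (42.8 to 59.1 and 69.6 to 203) no longer overlapped on that scale, nor did KRT80 (0.0408 to 0.808 and 2.26 to 15.6).

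**Figure D3:**
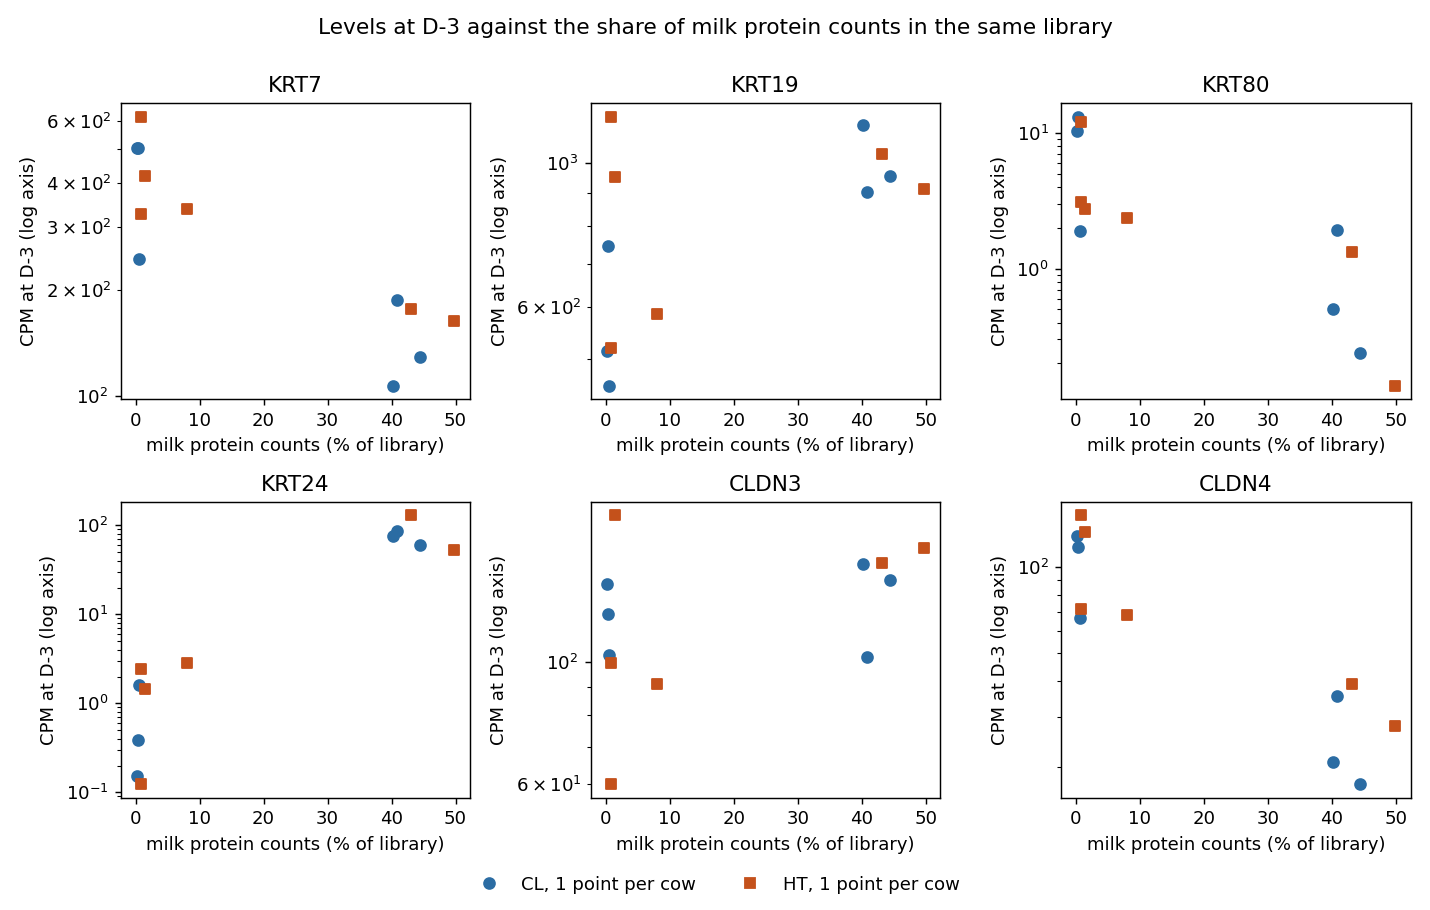
Level of each gene at D-3 in CPM on a log axis (vertical) against the share of counts in the milk protein genes CSN1S1, CSN2 and LALBA in percent of the library (horizontal), with 1 point for each of the 12 cows, colored by treatment. The 5 cows above 40% lie above the other 7 for KRT24, below them for KRT7 and CLDN4, and among them for KRT19 and CLDN3.

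Ratios of 2 genes within a library do not depend on its scaling. They were looked at for the pairs KRT7 to KRT19 and CLDN4 to CLDN3 after the data were seen. For this reason the 10 sign-flip tests computed for them are not printed, and the values are given as a description. The log2 ratio of CLDN4 to CLDN3 counts was -3.01 to -1.52 in the 5 cows rich in milk protein counts at D-3 and -0.63 to 0.61 in the other 7. At D3 the same cows had -0.70 to 0.21 and -0.40 to 0.51. The mean over all cows went from -1.06 ± 1.26 at D-3 to -0.18 ± 0.38 at D3 (SD, n = 12) and stayed between -0.09 and 0.01 at the 3 later time points, and 10 of 12 cows had a higher ratio at D3 than at D-3. CLDN4 was thus lower relative to CLDN3 in those 5 libraries than in any other library of D-3.

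The log2 ratio of KRT7 to KRT19 had the same shape. It was -3.42 to -2.28 in the 5 cows and -1.19 to -0.03 in the 7 at D-3, and -1.08 to -0.08 and -0.97 to 0.06 at D3. Its mean went from -1.56 ± 1.10 to -0.56 ± 0.35 (SD, n = 12), with 11 of 12 cows higher at D3, and then lay between -0.77 and -0.54.

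**Figure D4:**
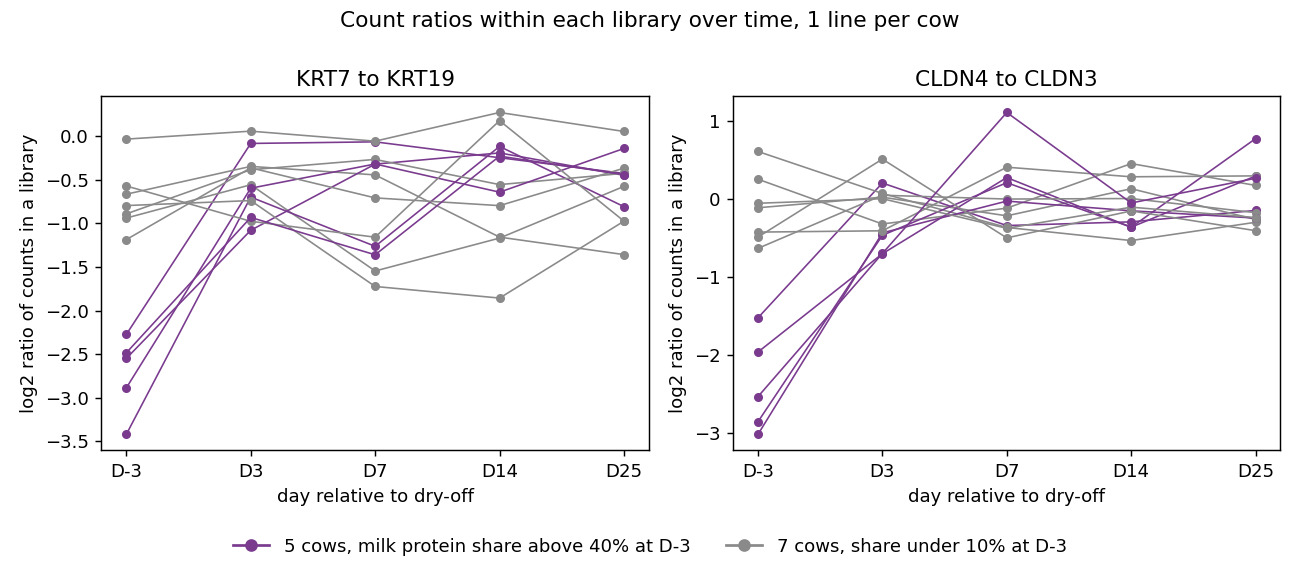
Log2 ratio of CLDN4 to CLDN3 counts and of KRT7 to KRT19 counts (vertical) at the 5 time points (horizontal), with 1 line for each cow, colored by the milk protein share of the cow at D-3. At D-3 the 5 cows above 40% lie below the other 7 in both ratios, and by D3 the ranges of the sets overlap.

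After D7 the 4 genes other than KRT24 and KRT80 stayed near the same level, with KRT7 at 343 ± 97.6, 363 ± 187 and 331 ± 76.2 CPM at D7, D14 and D25, KRT19 at 592 ± 187, 578 ± 405 and 499 ± 132 CPM, and CLDN3 at 78.5 ± 25.4, 83.5 ± 47.9 and 79.7 ± 25.3 CPM (SD, n = 12). CLDN4 had 81.9 ± 62.2 CPM at D14 and 77.0 ± 13.1 CPM at D25. KRT80 had 3.64 ± 4.67 and 1.91 ± 1.42 CPM at these time points and KRT24 0.487 ± 0.601 and 0.738 ± 1.27 CPM. Between D7 and D14 edgeR called 0 of 6 genes, against 0% of all loci, and between D14 and D25 0 of 6 against 0.0612%. At an unadjusted p under 0.05 edgeR also had 0 of 6 in both, where 1.75 and 3.63% of all loci had such a p, while DESeq2 had 1 (KRT24) in the first step and 0 in the second.

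At D14, 2 libraries lay at the ends of the ranges. In CL cow 7965 KRT7 had 2.83 CPM, KRT19 3.36, CLDN3 0.768 and CLDN4 0.624, where the lowest of the other 11 cows had 188, 231, 48.9 and 48.6 CPM. KRT80 in the same library had 1.78 CPM, within the range of the other cows. The library also had 24.4 CPM of ELF3, an epithelial transcription factor (at least 99.6 in the others), and 5396 CPM of DCN, a proteoglycan of fibroblasts (561 to 1559 in the others). The part of tissue composition in this library was not tested. HT cow 8314 was the highest at D14 for 5 genes, with 737 CPM of KRT7, 1643 of KRT19, 17.7 of KRT80, 193 of CLDN3 and 265 of CLDN4. It was also the highest at D14 in ELF3 (237 CPM, at most 155 in the others), the basal genes KRT17 (237, at most 140) and CNN1 (95.1, at most 45.5) and the muscle myosin MYH2 (9.65, at most 0.457), whose part was not tested either.

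In edgeR's fit of all samples, 1 of 6 genes was called for D25 vs. D-3, where 13.1% of all loci tested were (9.16% lower). Of the loci paired with a symbol, 23.4% were called. The gene called was KRT24. At D25 it had 0.0744, 0.205 and 4.46 CPM (lowest, median and highest). Its log2 fold change was -5.53 (SE 1.01, FDR 1.45e-04 by edgeR), or -3.99 (FDR 0.00712) with scaling by totals alone. Within cows KRT24 was lower at D25 in 8 of 12 (exact p = 0.02). The log2 differences ran from -9.67 to -7.73 in the 5 cows with over 40% milk protein counts at D-3. In the other 7 cows they ran from -3.42 to 2.26, and the 4 cows with a higher level at D25 were all among these. KRT7 (log2 fold change 0.10, FDR 0.877) and CLDN4 (0.07, FDR 0.923) did not pass. KRT19 was lower at D25 in 10 of 12 cows, by a mean of -0.71 ± 0.61 (SD, n = 12, exact p = 0.00391), and so was CLDN3, by -0.67 ± 0.68 (SD, n = 12, exact p = 0.00391). With Benjamini-Hochberg adjustment over the 30 sign-flip tests, both had an adjusted p of 0.0167. In the fit of all samples neither passed, at -0.73 (FDR 0.148) and -0.66 (FDR 0.183 by edgeR). Without cows 8513 and 8660 the within-cow means were -0.70 for KRT19 (8 of 10 cows lower, exact p = 0.0156) and -0.76 for CLDN3 (9 of 10, exact p = 0.00391). In an edgeR fit of the samples of D-3 and D25 alone both did (FDR 0.0212 and 0.0348), and with libraries scaled by their totals alone both differences were close to 0, at -0.10 and -0.08.

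Ordered by mean log2 level, KRT7 stood highest at D3, above D7 in 12 of 12 cows (exact p = 4.88e-04), and D7, D25, D-3 and D14 followed with no neighbors apart (exact p of at least 0.244). Neighbors are called apart where the sign-flip test of the within-cow difference gave an unadjusted p under 0.05, and their values may still overlap. For KRT19 the order was D3, D-3, D7, D25 and D14, in which D-3 and D7 were apart (exact p = 0.00244, 11 of 12 cows) and no other neighbors. For KRT80 the order was D3, D7, D14, D-3 and D25, with D3 apart from D7. For CLDN3 it was D3, D-3, D25, D7 and D14, with D-3 apart from D25 (exact p = 0.00391), and for CLDN4 D3, D25, D7, D-3 and D14, with D3 apart from D25 (exact p = 0.00439, 9 of 12 cows). KRT24 stood highest at D-3, followed by D7, D25, D3 and D14 with no neighbors apart (D-3 against D7, exact p = 0.062). These were 24 tests of neighbors, with unadjusted p-values. The order was set by the same values that were tested, so these p-values only describe it. Several repeat within-cow tests given above and add no support, among them D3 against D7 for KRT7 and KRT80 and D-3 against D25 for CLDN3. For 4 genes the last place of D14 rested on the library of cow 7965. With that library left out, D14 took place 2 of 5 for KRT7 (mean log2 level 8.53 in place of 7.95) and CLDN4 (6.32 in place of 5.75), place 3 for CLDN3 (6.39 in place of 5.84) and place 4 for KRT19 (9.10 in place of 8.49), and it was still last for KRT24.

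No difference between HT and CL was called by edgeR for any of the 6 genes at any time point, 0 of 6 against 0% of all loci tested at each. At an unadjusted p under 0.05 edgeR had 1 gene (KRT24 at D7) and DESeq2 2 (KRT19 and KRT24 at D7), and neither had any at the other time points, while 2.03, 0.659, 4.57, 1.68 and 2.26% of all loci reached that p by edgeR in the order of the time points. The values of HT and CL cows overlapped for every gene at every time point, and they lay apart for 0.0544, 0.0136, 0.143, 0.0408 and 0.068% of all loci. The interaction of treatment and time was called for 0 of 6 genes, with 0 at an unadjusted p under 0.05 (0.578% of all loci) and a smallest unadjusted p of 0.359 by edgeR.

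KRT24 at D7 was 0.0425, 2.24 and 6.45 CPM in HT cows (lowest, median and highest of 6) and 0.0377, 0.283 and 1.55 CPM in CL cows. The 3 highest values were those of HT cows 8314 (3.80 CPM), 8513 (6.11) and 8660 (6.45). The log2 fold change was 2.69 (SE 1.09, FDR 0.959 by edgeR), and the exact two-sided permutation test of the 12 cows gave p = 0.152. In these 3 samples milk protein counts were 1.45, 14.5 and 4.24% of the library, and from 0.00669 to 3.92% in the other 9, and the part of milk gene activity in the difference was not tested.

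KRT19 at D7 was 488, 697 and 984 CPM in HT cows (lowest, median and highest of 6) and 259, 520 and 648 CPM in CL cows, which overlapped. The log2 fold change was 0.50 (SE 0.23, FDR 0.959 by edgeR), with an exact permutation p of 0.0476. At D14 KRT19 was 298, 688 and 1643 CPM in HT cows and 3.36, 420 and 595 CPM in CL cows, also with an exact p of 0.0476. In all, 30 such permutation tests were computed and 0.0476 was the smallest p among them. Without the D14 sample of cow 7965 the log2 fold change of KRT19 at D14 was 0.80 (unadjusted p = 0.0596, FDR 0.99 by edgeR).

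At D7 CLDN4 was 70.3, 79.2 and 98.2 CPM in HT cows (lowest, median and highest) and 63.2, 67.3 and 84.2 CPM in CL cows (log2 fold change 0.21, exact permutation p = 0.0541). In the edgeR fits the fold changes at D3 ran from -0.09 for KRT19 to -0.75 for KRT24 and at D14 from 0.39 for KRT7 to 1.07 for KRT19, with none past the threshold. These signs were not shared by every measure, since the difference of mean log2 levels was 0.0465 for KRT19 at D3 and -0.10 for KRT24 at D14. At D14 the fold change of KRT7 went to 0.12 without the sample of cow 7965.

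**Figure D5:**
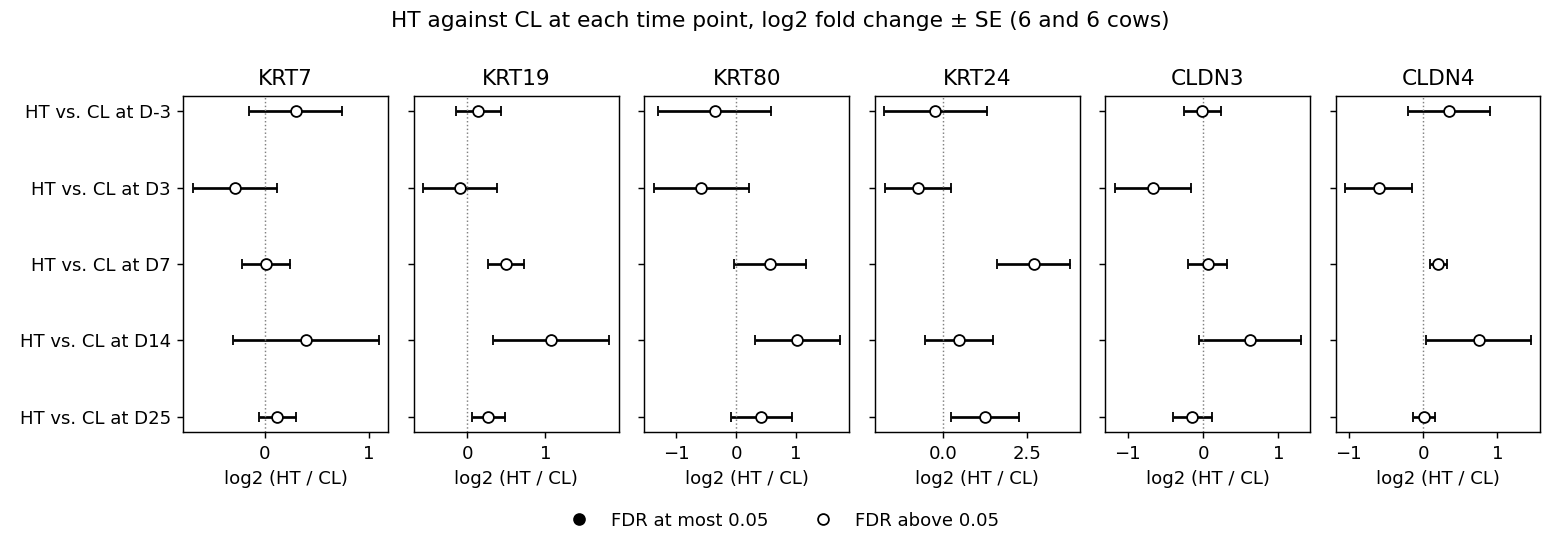
Log2 fold change of HT vs. CL (horizontal) for each gene at the 5 time points (vertical), from edgeR's fits of 12 samples each, with bars of 1 SE. Every point is open, which marks an FDR above 0.05, and the point of KRT24 at D7 is the highest of that gene.

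Other genes of the same families and of cell junctions were set beside them, as far as a symbol could be paired with a locus. The paired loci were named largely through tables of changed genes, so the counts of these lists lean toward change, and 55.4% of the tested loci with a symbol were called for D3 vs. D-3 and 13.3% for D7 vs. D3. Of 3 loci of other keratins, 1 rose at D3, KRT5, a basal keratin (log2 fold change 1.01, SE 0.31, FDR 0.019), while KRT17, another basal keratin, had 0.82 (FDR 0.0579) and the locus shared by KRT6B and KRT75 1.60 (FDR 0.125). All 3 fell at D7, by -1.03 (FDR 0.0489) for KRT5, -1.24 (FDR 0.0176) for KRT17 and -3.82 (FDR 0.00557 by edgeR) for KRT6B and KRT75. The locus of KRT6B and KRT75 was low, with a median of 1.27 CPM at D-3, 1.18 CPM at D3 and 0.204 CPM at D7. Its median thus did not rise at D3, when its highest value was 24.3 CPM. With the cow as a block, KRT17 also rose at D3 (FDR 0.0485). The median of this list of 3 loci was 1.01 for D3 vs. D-3, the value of KRT5, where that of all loci was -0.01. In the lists given next it was 0.49 for other claudins, 0.16 for the tight junction and 0.39 for adherens junctions and desmosomes.

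Of 3 loci of other claudins, CLDN15 rose at D3 (log2 fold change 0.49, FDR 0.0392) and CLDN7 had 0.72 (FDR 0.0584), and both fell at D7 (-0.63, FDR 0.0249, and -0.91, FDR 0.0463 by edgeR). With the cow as a block CLDN7 no longer passed at D7 (FDR 0.0539). CLDN11 passed neither test, and its levels lay the other way. Its median was 2.12 CPM at D-3, 1.21 CPM at D3 and 3.98 CPM at D7. Of 26 further genes of the tight junction 7 were paired, of which 0 were called at D3 and 1 fell at D7, F11R, the junctional adhesion molecule A (log2 fold change -0.50, SE 0.12, FDR 0.0123 by edgeR), which with the cow as a block also rose at D3 (0.28, FDR 0.0475). Of 20 genes of adherens junctions and desmosomes 6 were paired, of which 5 rose at D3. These were CTNNA1, the alpha-catenin of epithelia (0.35, FDR 0.00238), PPL, periplakin (0.80, FDR 0.0138), PERP, a desmosomal membrane protein (0.60, FDR 0.0151), and the nectins NECTIN4 (0.32, FDR 0.0242) and PVRL2 (0.43, FDR 0.0253 by edgeR). At D7 1 of them fell, CTNNA1 (-0.36, FDR 0.0123), and with the cow as a block CTNND1, another catenin, fell too (-0.30, FDR 0.0299). No gene of these lists was called between HT and CL at any time point.

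Markers of cell types were called in the same comparisons. Of all tested loci with a symbol, 55.4% were called for D3 vs. D-3 (23% higher, 32.4% lower) and 13.3% for D7 vs. D3 (10.6% lower). Of all loci tested, 15.1 and 2.92% were called. KRT5 and KRT17 are in the list of basal markers as well as in that of other keratins, so these 2 lists are not separate. ELF3, the 1 of 11 general epithelial markers paired, rose at D3 (log2 fold change 0.64, FDR 0.0234) and had -0.62 at D7 (FDR 0.0782 by edgeR). Of 9 markers of myoepithelium and basal cells 6 were paired, of which 4 rose at D3 (5 with the cow as a block) and 5 fell at D7, with a summed level of 594 to 3750 CPM at D-3, 1233 to 5033 CPM at D3 and 973 to 2639 CPM at D7. The 3 paired of 8 secretory markers fell at D3, with a median log2 fold change of -4.65. KDR, the 1 of 4 endothelial markers paired, fell at D3 (-0.95, FDR 0.0023), DCN, the 1 of 6 of fibroblasts, and ADIPOQ, the 1 of 4 of adipocytes, were not called, and of 2 paired of 7 skeletal muscle markers MYH2 rose at D3 (2.95, FDR 0.00913) and fell at D7 (-4.46, FDR 0.00253 by edgeR). With the cow as a block ADIPOQ (1.32, FDR 0.0414) and the other muscle marker, MYH7, were called higher at D7. Both muscle markers were low. The median of MYH2 was 0.571 CPM at D-3, 3.65 CPM at D3 and 0.147 CPM at D7, and that of MYH7 0.230 CPM at D3 and 0.689 CPM at D7. Of 11 markers of skin and 6 of leukocytes 0 were paired. The part of cell composition in the changes of keratins and claudins was not tested. In cow 8564 at D3, the library with the highest KRT7, KRT19, KRT24, KRT80, CLDN3 and CLDN4 of that day, ELF3 (392 CPM), KRT17 (587 CPM) and CLDN7 (560 CPM) were also the highest of the 12.

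The genes whose profile over the 10 group means was nearest to each of the 6 were found among 2903 loci with a symbol, by the root mean square difference of centered log2 levels. KRT7 and CLDN4 were each the nearest of the other, at a difference of 0.115, where KRT7's own profile had a root mean square of 0.583. For KRT19 the nearest were KRT17 (0.187), CCDC64B (0.234) and CLDN3 (0.265), and for CLDN3 MYH7B (0.197), CCDC64B (0.209) and PPP1R14D (0.234). For KRT24 they were ALOX15 (0.221), SLC30A2 (0.266) and CSN2, the beta-casein gene (0.341), where its own profile had 1.57. KRT80 had no near neighbor, with LOC507550 at 0.415 and THBS1 at 0.435 against its own 0.961. All profiles share the same 60 libraries, and a near profile is a description of these means. The mean of CL at D14 includes the library of cow 7965. There the centered level was -1.06 for KRT7, -1.68 for KRT19, -1.29 for CLDN3 and -1.15 for CLDN4, but -0.41 for KRT80. KRT17 had 1.25 CPM in that library and at least 62.2 CPM in the other cows at D14. How near the profiles lie without that library was not tested.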

How the data were processed

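Poly(A) RNA of the 60 biopsies was sequenced as single-end reads on an Illumina NextSeq instrument. The authors' processing notes name FastQC, Trim Galore 0.4.1, TopHat2 2.0.13, Cufflinks 2.2.1 and HTSeq. The deposited values are counts of reads per locus, whole numbers with no normalization by the authors. The labels name the UMD3.1 build and the study's methods bosTau7, so no coordinates are given. Each sample has 26073 entries for 25223 loci, and 742 loci join several genes under 1 count, which entered each test once. Symbols came from the study's supplementary tables, held here in part, or a reference table, and pair 3033 loci.

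Loci reaching 1 CPM in 6 or more samples were tested with edgeR 4.0.16 (R 4.3.3, limma 3.58.1) by quasi-likelihood F-tests with TMM scaling. Time points were compared in a fit of all 60 samples with 1 mean per time point, HT and CL in the 12 samples of a time point, and the interaction of both in all 60. The FDR is Benjamini-Hochberg over all loci tested. The SE of a log2 fold change is its size divided by the square root of F. Exact two-sided sign-flip and permutation tests used log2 CPM with a prior count of 2. A permutation of 6 and 6 cows cannot give a p under 0.00216. DESeq2 1.42.0, other filters and scalings, a cow block and leaving out each cow were alternatives. The same cow was sampled at every time point, and its samples deviated together. The mean correlation was 0.293 over 120 pairs of samples of 1 cow at different time points. It was -0.0573 over 600 pairs of different cows of the same treatment, also at different time points. Exact tests and plots ran in Python 3.11.15 (scipy 1.17.1, numpy 2.4.6, pandas 2.3.3, matplotlib 3.10.9), and the tests were tried on simulated data.

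The 6 genes and the lists set beside them were chosen with earlier results of these data known. From each list at most 6 genes were named, those with the smallest p in a comparison of time points, other keratins and claudins first. Nearest profiles were the 3 closest loci with a symbol.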

Additional observations from a re-analysis of the deposited data

Results flagged for a closer look

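Among 60 groups of 6 cows, 1 for each gene, treatment and time point, 5 held a sample far from the others by Dixon's gap test at 95%, where chance gives about 1 in 20. In 4 of them the sample was CL cow 7965 at D14, with 2.83 CPM of KRT7, 3.36 of KRT19, 0.768 of CLDN3 and 0.624 of CLDN4, where the nearest CL cow had 280, 231, 65.0 and 66.4 CPM. These 4 are 1 library and not 4 separate findings. The fifth was CL cow 8647 at D25 with 51.1 CPM of CLDN4, where the nearest CL cow had 74.3 CPM.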

How the results depend on the processing

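For D3 vs. D-3, 4 genes were called and 2 (KRT7 and KRT24) in a fit of only the samples of those time points, and leaving out 1 cow gave 2 to 4 genes. For D7 vs. D3, 3 were called, and 0 with libraries scaled by their totals alone, 5 without the D14 sample of cow 7965, 5 in a fit of only the samples compared and 5 under the looser threshold of p 0.005 unadjusted and a log2 change of 0.5 or more. Leaving out 1 cow gave 0 to 5. For D25 vs. D-3, 1 was called, and 0 under the stricter filter of 1 CPM in 30 samples, which leaves KRT24 untested, 2 without the D14 sample of cow 7965 and 3 in a fit of only the samples compared. The other counts, all 0 between HT and CL included, stayed within 1.5 times. Of the calls made, none changed direction under an alternative.

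With a replicate block for the cow, 4, 3 and 1 genes were called for D3 vs. D-3, D7 vs. D3 and D25 vs. D-3 and 0 in the 2 later steps, as without it, and the block changed no call of the 6 genes, also with cows 8513 and 8660 exchanged at D14 and D25. Differences close to 0 that were not called did change sign under the block, between D7 and D14 from 0.08 to -0.01 for KRT7 and from 0.11 to -0.05 for CLDN4, and between D14 and D25 from -0.07 to 0.03 for CLDN3 and from -0.09 to 0.06 for CLDN4. Scaling by totals alone moved the median log2 fold change of all loci from about 0 to 0.349 for D3 vs. D-3 and 0.483 for D25 vs. D-3, and changed the loci called higher and lower from 887 and 1330 to 2216 and 175 for D3 vs. D-3 and from 582 and 1348 to 5853 and 185 for D25 vs. D-3. For D7 vs. D3 it called 36 loci in place of 430. The cause was not tested. The alternative of dividing by summed KRT8, KRT18, EPCAM and CDH1 was not run, since these were not paired with a locus here. KRT24 after D-3 and KRT80 at D-3 rest on few reads, down to 1 in a library.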
